A study of Mus musculus with 4 samples.

Results

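Genes that store, transport and metabolise vitamin A were described in mouse liver. The set comprised 8 genes, Rbp4, Lrat, Rdh10, Rdh11, Dhrs3, Aldh1a1, Cyp26a1 and Rarb, and its members were all probe sets that the platform annotation assigned to exactly 1 of these symbols. This gave 11 of the 45101 probe sets of the array, with 2 each for Lrat, Rdh10 and Rdh11. Of these 11, 10 reached a log2 value of 4, taken as the limit of measurement, on at least 1 array, and these are among the 16298 probe sets tested. The remaining one was the single probe set of Rarb.

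Each group was 1 array hybridised with pooled liver RNA of male C57BL/6J mice, 8 to 12 weeks old when the diets began and kept on them for 20 weeks. The groups were a high-fat diet with clodronate (10 mice), a high-fat diet with PBS (10 mice), a low-fat diet with clodronate (8 mice) and a low-fat diet with PBS (8 mice). Fat gave 45% or 10% of energy, and palm oil stood in for lard in both diets. In the final week each mouse received 2 intraperitoneal injections of clodronate liposomes, an agent taken up by and toxic to phagocytes such as Kupffer cells, or of PBS. The control injection held no liposomes, so effects of clodronate and of liposomes cannot be told apart. The spread between mice was not measured, and a difference between 2 arrays has no replicate check. In bulk liver RNA, fewer cells of a type and less RNA per cell cannot be told apart.

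The liver is the main store of vitamin A. Retinol is esterified for storage, chiefly in hepatic stellate cells, and is released into blood bound to a carrier made by hepatocytes. Inside cells retinol is oxidised reversibly to retinal and then irreversibly to retinoic acid, which activates nuclear receptors of the RAR family at response elements in DNA. Retinoic acid induces the genes for its own breakdown and for one of its receptors, so that Cyp26a1 and Rarb are widely used as readouts of retinoic acid signalling.

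The promoters of Cyp26a1 and Rarb are shown because both hold the direct repeat through which retinoic acid receptors act, while only Cyp26a1 was measurable on these arrays. The repeat searched was a pair of hexamers, each being AGGTCA or the variant AGTTCA or the variant GGGTCA or the variant GGTTCA, in the same orientation with 5 bases between them (DR5), on both strands. Capitals mark the hexamers. The windows are from RefSeq, build GRCm38.p6, run from 250 bases before to 50 bases after an annotated transcript start, and read 5′ to 3′ on the strand of the gene. The Cyp26a1 window is chr19:37697558-37697857 on the plus strand, and the Rarb window is chr14:16575427-16575726 on the minus strand.
Cyp26a1: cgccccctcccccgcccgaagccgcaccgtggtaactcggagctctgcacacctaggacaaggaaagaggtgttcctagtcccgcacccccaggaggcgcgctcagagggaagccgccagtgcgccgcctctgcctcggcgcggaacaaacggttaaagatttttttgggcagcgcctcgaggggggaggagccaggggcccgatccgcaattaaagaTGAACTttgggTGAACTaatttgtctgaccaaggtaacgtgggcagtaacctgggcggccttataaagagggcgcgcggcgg
Rarb: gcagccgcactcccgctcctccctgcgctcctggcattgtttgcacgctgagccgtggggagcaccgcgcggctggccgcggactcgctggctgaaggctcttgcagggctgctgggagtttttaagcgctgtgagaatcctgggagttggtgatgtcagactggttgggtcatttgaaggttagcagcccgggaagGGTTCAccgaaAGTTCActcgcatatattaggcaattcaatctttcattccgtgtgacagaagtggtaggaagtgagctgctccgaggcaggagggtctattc

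In the Cyp26a1 window the repeat lay on the opposite strand, at chr19:37697776-37697792, bases -32 to -16 from the start. Read on its own strand it was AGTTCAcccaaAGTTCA. In the Rarb window it lay on the strand of the gene, at chr14:16575513-16575529, bases -53 to -37, and read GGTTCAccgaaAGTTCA. A DR5 repeat was found in 32 of 32851 promoter windows (0.0974%), and these were windows of 31 genes. Of the 8 genes of the set 7 had at least 1 window, 12 windows in all, and the repeat was in the windows of 2 of them. The same hexamers with 2 bases between them (DR2) were in 0.268% of all windows and with 1 base between them (DR1) in 0.222%, in each case in 0 of the 12 windows of the set. A match is a description of the sequence and not of receptor binding.

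Of the 31 genes with a DR5 repeat, 11 had a probe set with a single symbol, and 2 of these reached 4 on any array, Cyp26a1 and Blvrb. Blvrb, biliverdin reductase B, was at 10.23 on the high-fat clodronate array, against 10.38 on the high-fat PBS array. On the low-fat diet it was at 10.33 with clodronate, against 10.10 with PBS. Between clodronate and PBS it differed by 0.24 (log2) on the low-fat diet, far less than Cyp26a1, at 2.21 or more. On the high-fat diet the difference was -0.14 for Blvrb and 0.04 for Cyp26a1, the latter a bound at the limit of measurement.

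**Figure D1:**
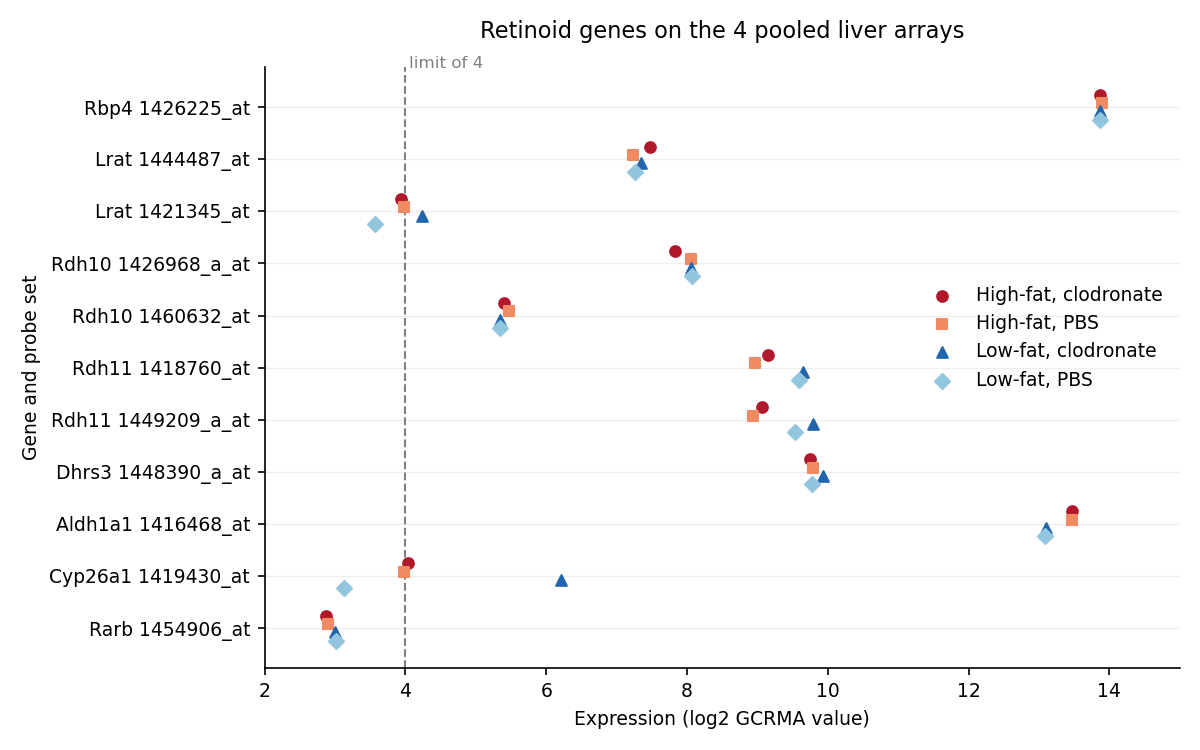
Log2 GCRMA expression value of each of the 11 probe sets (rows, in order of role) on the 4 pooled arrays, 1 symbol per array, with the limit of 4 as a dashed line. Cyp26a1 lies at 6.21 on the low-fat clodronate array and at 4.04 or below on the other arrays, the Rdh11 probe sets lie lower and Aldh1a1 higher on both high-fat arrays, and Rarb lies below 4 throughout.

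Cyp26a1 stood out on 1 array. It encodes the cytochrome P450 that clears retinoic acid by hydroxylation. Its log2 value was 4.04 on the high-fat clodronate array and 3.99 on the high-fat PBS array. It was 6.21 on the low-fat clodronate array and 3.13 on the low-fat PBS array. The gene was thus clearly measured only in mice that received clodronate on the low-fat diet, with 1 further array just above the limit and both PBS arrays below it.

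With values below 4 set to 4, Cyp26a1 was at least 4.63-fold higher with clodronate than with PBS on the low-fat diet. In that comparison 1 of the 10 member probe sets was 2-fold or more higher and 0 were lower, where 0.252% and 0.515% of all probe sets tested were. On the high-fat diet the corresponding difference of Cyp26a1 was 0.04 (log2), a bound at the limit of measurement, and 0 of the 10 were 2-fold or more higher or lower, where 0.11% and 0.657% of all were. Among clodronate-injected mice Cyp26a1 was 4.52-fold lower on the high-fat than on the low-fat diet. It was 1 of 10 member probe sets 2-fold or more lower there, where 0.853% of all were, and 0 were higher, where 0.38% of all were. With PBS both diets were below the limit and no diet difference could be measured.

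The low-fat clodronate value of Cyp26a1 exceeded that of the next array by 2.18 (log2). Ranked by this excess of the low-fat clodronate array over each other array, Cyp26a1 was in place 1 of the 16298 probe sets tested. Such isolated values were rare on every array. The low-fat clodronate array had 10 probe sets at least 2-fold above each other array (0.0614%), the high-fat clodronate array 6, the low-fat PBS array 4 and the high-fat PBS array 2.

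The clodronate difference on the high-fat diet minus that on the low-fat diet was -2.18 for Cyp26a1 (log2, values below 4 set to 4), the fifth largest in size of the 16298 probe sets. With 1 array per group this difference of differences could not be tested. The average over the diets joins these unlike differences. It was 1.57 ± 2.14 as deposited (SD over the 2 diets, n = 2) and was not called by limma with Benjamini-Hochberg adjustment (unadjusted p = 0.0543, adjusted p = 1). With values below 4 set to 4 the mean was 1.12.

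Cyp26a1 was represented by 1 probe set, so that no independent probe set of the gene could be set beside this pattern. Genes with the most similar profile were sought by the distance between floored values over the 4 arrays, each centred on its own mean, among 8649 other genes. The 5 nearest were Cish, Onecut1, Rgs3, Susd1 and E2f8, at distances between 0.67 and 0.95.

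Cish, a feedback inhibitor of cytokine and growth hormone signalling, was at 4.80 and 5.58 on the high-fat clodronate and high-fat PBS arrays. On the low-fat arrays it was at 7.17 with clodronate, against 5.44 with PBS. Cish differs from Cyp26a1 in that it was measured on all 4 arrays and was lower with clodronate on the high-fat diet, by 0.78.

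Onecut1, a hepatocyte transcription factor also known as HNF6, was at 5.28 and 5.63 on the high-fat clodronate and high-fat PBS arrays, and at 6.94 and 5.67 on the low-fat clodronate and low-fat PBS arrays. Its other probe set was at 6.59 with clodronate, against 5.09 with PBS, on the low-fat diet, and at 3.92 with clodronate, against 5.08 with PBS, on the high-fat diet. That probe set was thus lower with clodronate on the high-fat diet by at least 1.08 (log2), against 0.35 for the probe set used. Both probe sets of Onecut1 were highest on the low-fat clodronate array.

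Rgs3, a regulator of G protein signalling, was 2.62-fold higher with clodronate than with PBS on the low-fat diet by the probe set used and higher by 0.37 (log2) by another. Susd1 was 1.98-fold and E2f8, an atypical E2F factor of the cell cycle, 2.21-fold higher in that comparison. On the high-fat diet E2f8 was higher with clodronate by 0.39, whereas Rgs3 and Susd1 were lower by 0.20 and 0.14. The 5 genes were chosen by likeness to Cyp26a1 on these same arrays. Their p-values and calls are therefore not independent of the choice and are no evidence for the pattern. None of the 5 genes was called in either averaged effect (limma, Benjamini-Hochberg), although E2f8 for clodronate (unadjusted p = 0.021) and Rgs3 and Susd1 for diet (unadjusted p = 0.00493 and 0.0201) had an unadjusted p under 0.05. Calls for diet appeared under other settings, for Rgs3 with 1 probe set per gene (adjusted p = 0.0394) and for Rgs3, Cish, Onecut1 and Susd1 with centred arrays (adjusted p between 8.11e-09 and 0.0145).

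**Figure D2:**
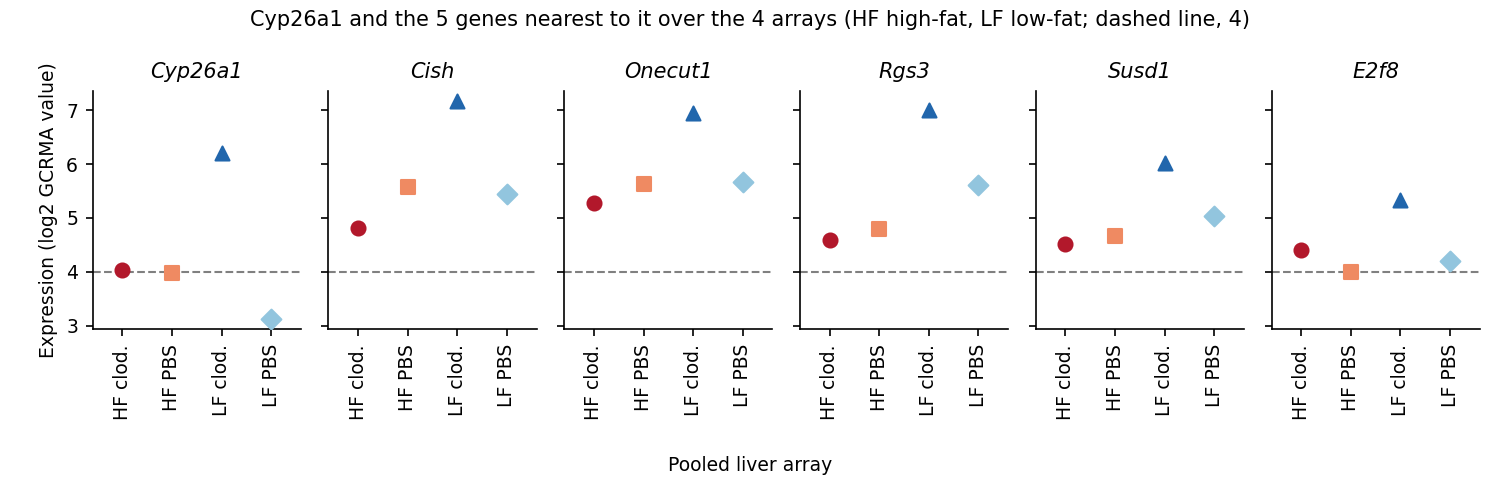
Log2 GCRMA expression value of Cyp26a1 and of the 5 genes nearest to it on each pooled array (HF, high-fat diet; LF, low-fat diet; clod., clodronate), with the limit of 4 dashed. All 6 genes are highest on the low-fat clodronate array, which follows from choosing the 5 by likeness to Cyp26a1 over these arrays. Cyp26a1 alone is below 4 on the PBS arrays.

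Rarb, the retinoic acid receptor subtype whose gene is itself induced by retinoic acid, was at 2.87 and 2.89 on the high-fat clodronate and high-fat PBS arrays. It was at 3.0 and 3.01 on the low-fat clodronate and low-fat PBS arrays. All 4 values were below the limit of measurement, so a difference in Rarb was not measurable on these arrays, including the array on which Cyp26a1 was high.

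The retinol dehydrogenase Rdh11 was lower on the high-fat diet. The enzyme, also called retinal reductase, interconverts retinal and retinol in the membrane of the endoplasmic reticulum. Its brighter probe set (1418760_at) was at 9.15 on the high-fat clodronate array, against 9.65 on the low-fat clodronate array. With PBS it was at 8.96 on the high-fat diet, against 9.59 on the low-fat diet. Both high-fat values lay below both low-fat values.

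The other probe set of Rdh11 (1449209_a_at) was at 9.07 on the high-fat clodronate array, against 9.78 on the low-fat clodronate array. With PBS it was at 8.94 on the high-fat diet, against 9.54 on the low-fat diet. The order of the 4 arrays was the same for both probe sets, which the annotation credits to the same transcript record.

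With clodronate the 2 probe sets of Rdh11 were 1.41-fold and 1.64-fold lower on the high-fat diet, and with PBS they were 1.54-fold and 1.51-fold lower. These differences come from separate pairs of arrays. Of the probe sets tested, 1.1% were lower by at least 0.49 and 0.601% by at least 0.60 (log2) with both injections, the smaller of the 2 differences of each Rdh11 probe set. Averaged over the injections the differences were -0.56 ± 0.09 (SD, n = 2; 95% interval -0.78 to -0.34) and -0.66 ± 0.08 (95% interval -0.88 to -0.44). Neither passed the test over all probe sets (limma, Benjamini-Hochberg adjusted p = 0.113 and 0.0732).

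Aldh1a1, a retinaldehyde dehydrogenase that makes retinoic acid from retinal, moved the other way with diet. Its probe set was at 13.46 on the high-fat clodronate array, against 13.10 on the low-fat clodronate array. With PBS it was at 13.47 on the high-fat diet, against 13.09 on the low-fat diet. The high-fat arrays were 1.29-fold higher with clodronate and 1.3-fold higher with PBS, and the 2 injections gave nearly equal values within a diet.

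The diet difference of Aldh1a1 averaged 0.37 ± 0.01 (SD, n = 2; 95% interval 0.24 to 0.50), and 1.59% of the probe sets tested were higher by at least 0.37 with both injections. It missed the threshold over all probe sets (limma, Benjamini-Hochberg adjusted p = 0.0828). The call changed with the features tested and the prior. With 1 probe set per gene and 8650 genes tested, Aldh1a1 was called higher on the high-fat diet (limma, Benjamini-Hochberg adjusted p = 0.00858) and Rdh11 lower, by its brighter probe set (adjusted p = 0.0196). Without the mean-dependent prior variance their adjusted p over all probe sets were 0.522 for Aldh1a1 and 0.472 for both Rdh11 probe sets. The clodronate difference of Aldh1a1 averaged 0.00 ± 0.01.

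**Figure D3:**
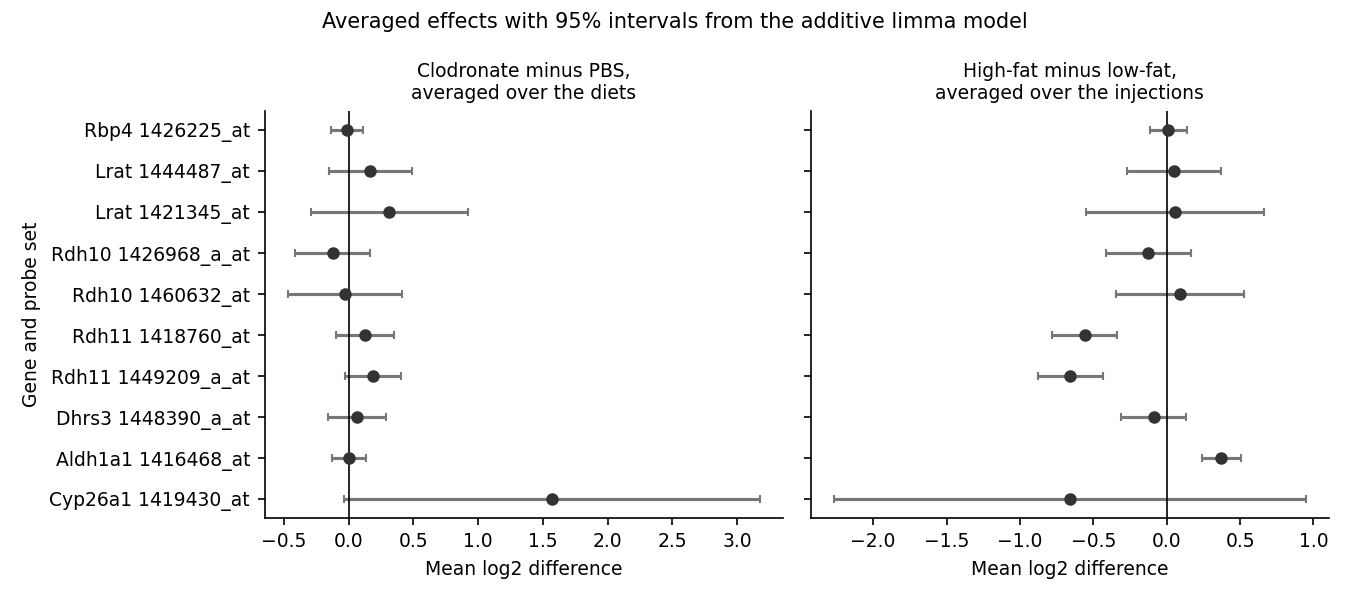
Mean log2 difference of each of the 10 tested probe sets for clodronate minus PBS averaged over the diets and for high-fat minus low-fat diet averaged over the injections, from 4 arrays, with 95% intervals of the additive limma model. For diet, the intervals of Aldh1a1 and of both Rdh11 probe sets lie on one side of 0, and for clodronate all intervals include 0.

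Taking all 10 probe sets, 0 were called in the averaged clodronate effect by limma with Benjamini-Hochberg adjustment, where 0.454% of all were (0.0123% higher and 0.442% lower), and 0 had an unadjusted p under 0.05, where 3.82% of all did. In the averaged diet effect 0 were called, where 0.325% of all were (0.147% higher and 0.178% lower), and 3 had an unadjusted p under 0.05, where 10.7% of all did. These 3 were Aldh1a1 and the 2 probe sets of Rdh11. With PBS, 0 of the 10 were 2-fold or more higher or lower on the high-fat diet, where 0.362% and 0.27% of all were.

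The storage and transport genes differed little. Rbp4, the retinol carrier that hepatocytes secrete into plasma, was at 13.86 and 13.90 on the high-fat clodronate and high-fat PBS arrays and at 13.87 and 13.86 on the low-fat clodronate and low-fat PBS arrays. Its range over the 4 arrays was 0.04, with an averaged clodronate difference of -0.01 (95% interval -0.14 to 0.11) and an averaged diet difference of 0.01 (95% interval -0.11 to 0.14). The width of these intervals rests on the mean-dependent prior of the model.

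Lrat, lecithin retinol acyltransferase, forms the retinyl esters in which vitamin A is stored, and in liver it is best known from stellate cells. Its brighter probe set (1444487_at) was at 7.48 and 7.23 on the high-fat clodronate and high-fat PBS arrays, and at 7.35 and 7.26 on the low-fat clodronate and low-fat PBS arrays. It was higher with clodronate on both diets, by 0.25 and 0.09, and the averaged difference of 0.17 ± 0.11 (95% interval -0.15 to 0.49) was not called (limma, Benjamini-Hochberg adjusted p = 1).

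The other probe set of Lrat (1421345_at) was at 3.94 and 3.99 on the high-fat clodronate and high-fat PBS arrays, and at 4.24 and 3.57 on the low-fat clodronate and low-fat PBS arrays. It reached the limit on 1 array, the low-fat clodronate one, by 0.24. Its sign in comparisons with that array was therefore fixed by the filter. In the comparison of diets with clodronate the brighter probe set differed by 0.13. The value of -0.24 for the other is a bound whose sign the filter fixed.

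Stellate cell markers gave the following background for Lrat. Of 20 markers 15 were tested, and 0 were called by limma in either averaged effect, where 0.454% of all probe sets were for clodronate and 0.325% for diet. An unadjusted p under 0.05 was reached by 2 of the 15 for clodronate, where 3.82% of all did, and by 3 for diet, where 10.7% of all did. Their median clodronate difference was -0.01, against 0.00 over all probe sets, and their median diet difference was -0.15, against -0.05 over all. The summed linear level of the 20 markers was 5685 and 5729 on the high-fat clodronate and high-fat PBS arrays and 6163 and 5939 on the low-fat clodronate and low-fat PBS arrays. The defining markers Des and Gfap were below 4 on all arrays. Reln, the tested marker with the smallest range, lay between 9.37 and 9.41, whereas Tcf21 lay between 6.75 and 7.58. The markers with an unadjusted p under 0.05 (limma) for clodronate were Tcf21, at 0.35, and Lum, at -0.57. For diet they were Tcf21, Vipr1 and Dcn, at -0.47, -0.50 and -0.22. The part of stellate cell number in the values of Lrat was not tested.

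The other enzymes between retinol and retinal also varied little. Rdh10, which oxidises retinol to retinal, was at 7.83 and 8.06 on the high-fat clodronate and high-fat PBS arrays by its brighter probe set (1426968_a_at), and at 8.06 and 8.08 on the low-fat clodronate and low-fat PBS arrays. The high-fat clodronate array was thus the low one, by 0.23. The other probe set of Rdh10 (1460632_at) ranged from 5.34 to 5.47 and did not share this pattern, with 1 of the 4 pairwise differences in the same direction.

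Dhrs3, which reduces retinal back to retinol and is known to be induced by retinoic acid, was at 9.75 and 9.79 on the high-fat clodronate and high-fat PBS arrays. It was at 9.94 and 9.77 on the low-fat clodronate and low-fat PBS arrays. Dhrs3 was highest on the array on which Cyp26a1 was high, but by only 0.17 over low-fat PBS (log2). Averaged over the diets its clodronate difference was 0.06 (95% interval -0.16 to 0.28).

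**Figure D4:**
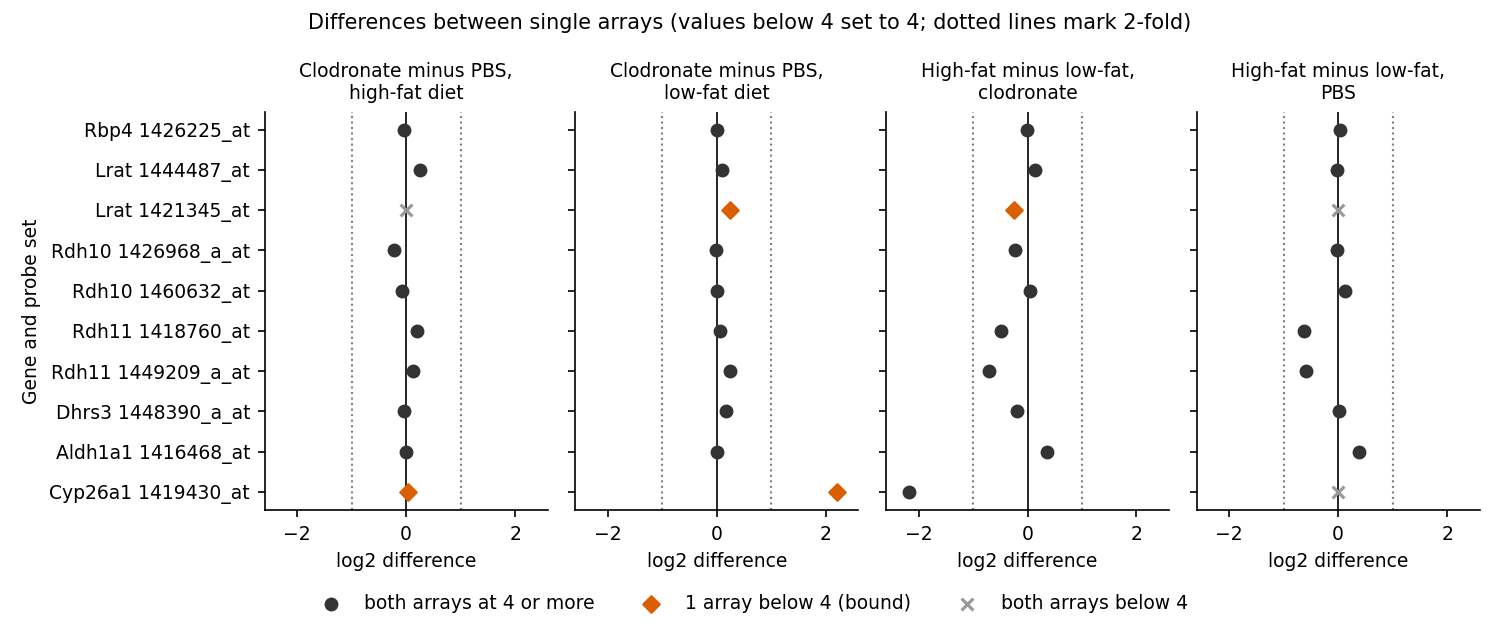
Log2 difference of each of the 10 tested probe sets (rows) in the 4 pairs of single arrays, with values below 4 set to 4 and dotted lines at 2-fold. Diamonds mark bounds (1 array below 4) and crosses pairs with both arrays below 4. Cyp26a1 lies outside the dotted lines in 2 panels, at 2.21 and -2.18, and all other points lie within them.

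Considered together, the 10 probe sets had a median difference with clodronate of -0.00 on the high-fat diet, against -0.04 over all probe sets, and of 0.07 on the low-fat diet, against 0.05 over all. On the low-fat diet 9 of the 10 were above 0. For diet, the median was -0.21 with clodronate, against -0.09 over all, and 0.00 with PBS, against 0.00 over all. With clodronate 7 of the 10 were lower on the high-fat diet, and with PBS 4 were lower and 4 higher. The share of all probe sets above or below 0 was not computed, so these counts have no background. The dimmer probe set of Lrat reached 4 on the low-fat clodronate array only. Its sign in comparisons with that array was therefore fixed by the filter. Both probe sets of Lrat, Rdh10 and Rdh11 are counted.

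Beyond the set, 77 further genes of retinoid handling were examined in 8 lists. Of these, 62 had a probe set with a single symbol, and 43 reached 4 on at least 1 array. By limma with Benjamini-Hochberg adjustment 1 of the 43 fell and 0 rose with clodronate, where 0.442% and 0.0123% of all probe sets did, and 2 had an unadjusted p under 0.05, where 3.82% of all did. With diet 0 rose and 0 fell, where 0.147% and 0.178% of all did, and 7 had an unadjusted p under 0.05, where 10.7% of all did. The median difference was 0.02 with clodronate, against 0.00 over all probe sets, and 0.02 with diet, against -0.05 over all.

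The 1 gene that fell with clodronate was Lpl in the list of storage and cellular binding, of which 9 members were tested. Lipoprotein lipase releases fatty acids and retinyl esters from lipoproteins and is also made by macrophages. It was at 4.94 with clodronate on the high-fat diet, against 7.11 with PBS, and at 6.57 with clodronate on the low-fat diet, against 7.96 with PBS. Both clodronate arrays lay below both PBS arrays. The averaged difference was -1.79 ± 0.55 (SD, n = 2; limma, Benjamini-Hochberg adjusted p = 0.0435). A dimmer probe set of Lpl was also lower with clodronate, by 1.51 on the low-fat diet and by at least 1.00 on the high-fat diet (log2). The call was lost without the mean-dependent prior (adjusted p = 0.293) and without a filter on low values (adjusted p = 0.205).

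Macrophage markers were also lower with clodronate. With diet their medians differed little, at 0.07 for the pan-macrophage and -0.14 for the Kupffer cell markers, against -1.24 for Lpl (averaged over the injections). Of 13 pan-macrophage markers 12 fell with clodronate and of 12 Kupffer cell markers 9 fell (limma, Benjamini-Hochberg), where 0.442% of all probe sets did. The summed linear level of the pan-macrophage markers was 1095 with clodronate, against 5455 with PBS, on the high-fat diet and 1072 with clodronate, against 5848 with PBS, on the low-fat diet. Clec4f, a defining Kupffer cell marker, was below 4 on both clodronate arrays. Between the clodronate arrays some markers, named here after their values were seen, differed in both directions. On the high-fat diet C1qb was at 6.02, against 4.04 on the low-fat diet, and Cd5l at 5.82, against 3.38. Lower on the high-fat diet were Lyz2, at 7.80 against 8.12, and Tyrobp, at 5.10 against 5.42. In each of the 2 lists 1 marker was 2-fold or more higher on the high-fat diet and 0 lower, where 0.38% and 0.853% of all probe sets were. The median difference of each list was 0 (values below 4 set to 4). Markers below 4 on both clodronate arrays, among them Clec4f, Vsig4, C1qa and C1qc, enter it as 0 by this rule. The median therefore cannot show whether the remaining macrophage RNA was equal on the clodronate arrays. The part of macrophage loss in the values of Lpl and Cyp26a1 was not tested.

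In the list of retinol and retinal interconversion 14 genes were tested and 0 were called in either effect. The alcohol dehydrogenases Adh1, Adh4 and Adh5 and the retinol dehydrogenase Rdh7 differed by 0.08 or less in both averaged effects. The 2 members with an unadjusted p under 0.05 for diet were Rdh16, at -0.27 ± 0.13, and Dhrs4, at 0.26 ± 0.09 (limma, SD, n = 2; unadjusted p = 0.0306 and 0.0133, adjusted p = 0.424 and 0.335). Both act on retinoids as short-chain dehydrogenases. Akr1b8, an aldo-keto reductase, was 2.17-fold higher with clodronate than with PBS on the low-fat diet, at 5.28 against 4.16, and was higher by 0.16 on the high-fat diet. Its averaged clodronate difference of 0.64 ± 0.68 was not called (limma, Benjamini-Hochberg adjusted p = 1).

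Among enzymes that oxidise retinal, 4 genes were tested and 0 called. Aox3, an aldehyde oxidase of liver named here after its values were seen, had a diet profile near that of Aldh1a1. It was at 11.54 on the high-fat clodronate array, against 11.14 on the low-fat clodronate array, and at 11.66 on the high-fat PBS array, against 11.19 on the low-fat PBS array. Its averaged diet difference was 0.43 ± 0.05 (limma, Benjamini-Hochberg adjusted p = 0.104). Aldh1a7, Aldh8a1 and Aox1 differed by 0.12, 0.02 and 0.13 with diet.

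The transport list, of which 4 members were tested, held Ttr, the plasma partner of the retinol carrier, and Stra6l, a liver receptor for that carrier. The averaged differences of the 4 lay between -0.10 and 0.06 for diet and between -0.07 and 0.04 for clodronate, and 0 were called. The carotene cleaving enzymes Bco1 and Bco2 differed by 0.02 and 0.18 with clodronate and by -0.34 and 0.16 with diet, and 0 of the 2 were called. Of the breakdown enzymes other than Cyp26a1, Cyp26b1 was below 4 on all arrays. Cyp3a11, a broad-spectrum P450 and the only member tested, had an averaged clodronate difference of -0.17 ± 0.04 (limma, unadjusted p = 0.026, adjusted p = 1).

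Of the receptors and co-factors 5 were tested and 0 called, with Rxra, the main partner of retinoic acid receptors in liver, between 9.91 and 10.08. Rara was below 4 on all arrays by its brightest probe set and Rarg was at most at 4.10. Of the retinoic acid responsive genes 4 were tested and 0 called. On the low-fat diet, their median difference between clodronate and PBS was -0.35, against 0.05 over all probe sets. In that comparison Egr1, Fgf21 and Tgm2 differed by -0.64, -0.55 and -0.14, and Pck1 by 0.09. Tgm2, transglutaminase 2 and a retinoic acid target in several cell types, had an averaged clodronate difference of -0.15 ± 0.01 (SD, n = 2).

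Several listed genes were 2-fold or more apart between the diets in at least 1 pair of arrays. With clodronate 1 of the 43 was higher and 1 lower on the high-fat diet, where 0.38% and 0.853% of all probe sets were. With PBS 0 were higher and 2 lower, where 0.362% and 0.27% of all were. The part of retinoids or of other regulators in these differences was not tested. Lpl was 3.1-fold lower on the high-fat diet with clodronate and lower by 0.85 (log2) with PBS. Pnpla3, a lipase that can act on retinyl esters, was below 4 on both high-fat arrays and at 4.64 and 5.13 on the low-fat clodronate and low-fat PBS arrays. Fgf21, a liver hormone, was likewise below 4 on both high-fat arrays, and at 4.59 and 5.14 on the low-fat clodronate and low-fat PBS arrays. The diet differences of Pnpla3 and Fgf21 are therefore bounds, -0.64 and -0.59 with clodronate and -1.13 and -1.14 with PBS. These 2 genes are the 2 lower with PBS. Both passed the filter only through the low-fat arrays, so the direction of their diet differences was fixed by the filter. That count therefore cannot show a diet difference. The averaged diet effects of Pnpla3 and Fgf21 and their p-values also rest on values below 4. Egr1, an immediate early factor, was 2.99-fold higher on the high-fat than on the low-fat diet with clodronate and 1.56-fold higher with PBS. The averaged diet effects of Lpl, Pnpla3, Fgf21 and Egr1 were not called (limma, Benjamini-Hochberg adjusted p = 0.136, 0.0761, 0.201 and 0.224). With 1 probe set per gene, Pnpla3, Egr1 and Lpl passed for diet (adjusted p = 0.00943, 0.0472 and 0.0154), and Fgf21 did not (adjusted p = 0.0518). Leaving out Lpl, Pnpla3, Egr1 and Fgf21, the other 39 pathway genes had averaged diet differences between -0.34 and 0.43.

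**Figure D5:**
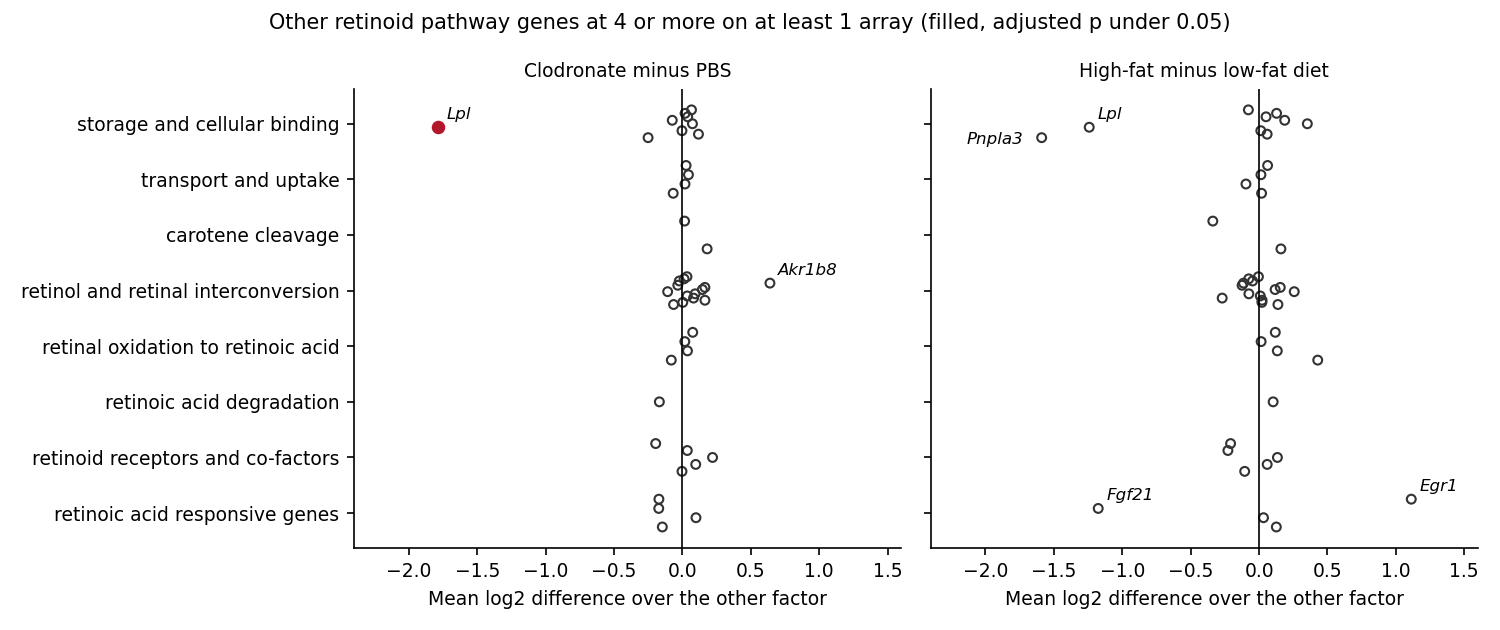
Mean log2 difference of the 43 other retinoid pathway genes tested, by list (rows; 1 circle per gene), for clodronate minus PBS and for high-fat minus low-fat diet, each averaged over the other factor. Lpl, at -1.79 with clodronate, is the filled circle and the only gene with an adjusted p under 0.05.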

How the data were processed

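Labelled RNA of 4 pools was hybridised to 1 single-colour Affymetrix array each, from 5 µg of total RNA with an integrity number above 8.0, per the labels' protocols. The deposited table holds log2 values per probe set, which the authors computed in GCRMA (version 2.24.1), as the submitters' processing notes record. No scanner file was used here. Array medians lay between 2.73 and 2.79 and Pearson's r between arrays, across probe sets, which are not independent replicates, between 0.994 and 0.996. The number of arrays limits the precision.

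Gene symbols came from the platform annotation. Of 45101 probe sets, 34958 had 1 symbol, 932 several and 9211 none, and all 8 members matched RefSeq by identifier and symbol. Listed genes without a single-symbol probe set were not analysed here. Differences between 2 arrays used 4 in place of any lower value and have no test. Averaged effects came from an additive model of injection and diet in limma 3.58.1 (R 4.3.3), on values as deposited, with a mean-dependent prior and 1 residual degree of freedom. Benjamini-Hochberg adjustment at 0.05 ran over the 16298 probe sets at 4 or more on at least 1 array. The residual on the 4 arrays is the departure from additivity of injection and diet, which may be technical or a true dependence. For Cyp26a1 it reflects the difference of differences on values as deposited, -3.03, which includes values below 4. The -2.18 given above had values below 4 set to 4. The prior, drawn from all probe sets tested, had 4.897 degrees of freedom and so weighed more than the residual. The p-values hold no spread between replicates. Alternatives were no mean-dependent prior, centred or quantile-normalized arrays, other filters and limits, and 1 probe set per gene.

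Members and lists were chosen with earlier results of these data known. Named genes were all members, listed genes called or with the largest 2-fold differences, and the 5 genes nearest to each member whose range reached 1. Python 3.11.15, numpy 2.4.6 and pandas 2.3.3 were used.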

Additional observations from a re-analysis of the deposited data

Results flagged for a closer look

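Akr1b8 had diet differences of opposite sign with the 2 injections. It was lower on the high-fat diet with clodronate (-0.59, log2) whereas with PBS it was higher on that diet (0.36). With 1 array per group, whether the diet difference depended on the injection was not tested.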

How the results depend on the processing

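No paired analysis was possible because each group was 1 array, and for the same reason no replicate could be left out. The member probe sets 2-fold apart (1 for clodronate on the low-fat diet, 1 for diet with clodronate, 0 in the other comparisons) were equally many under every alternative run. Probe sets called for clodronate numbered 74, against 11 without the mean-dependent prior, 181 with each array centred on its median and 23 without a filter. For diet 53 were called, against 0 without the mean-dependent prior, 0 without a filter, 146 with 1 probe set per gene, 368 with centred arrays, 209 after quantile normalization and 94 with a filter at 5. Member probe sets called for diet were 0, against 2 with 1 probe set per gene, 3 with centred arrays, 3 after quantile normalization and 2 with a filter at 5. For clodronate 1 was called, Cyp26a1, with centred arrays only, where the prior had infinite degrees of freedom. Of 112 averaged member effects recomputed, 99 kept direction and side of the threshold, 11 passed it and 2 near 0 changed sign, Aldh1a1 for clodronate (-0.0169 after quantile normalization) and Rbp4 for diet (-0.0009 with centred arrays). With values below 5 set to 5, probe sets 2-fold apart fell to 76, against 125, for clodronate on the high-fat diet, to 128, against 201, for diet with clodronate and to 66, against 103, for diet with PBS. In the comparison of diets with clodronate the split of higher and lower calls was 62 and 139, against 85 and 87 after quantile normalization, where the median difference of all probe sets tested was 0.00, against -0.10 as deposited. Calls higher and lower in the averaged effects were 24 and 29 for diet, against 122 and 87 after quantile normalization, and 2 and 72 for clodronate, against 31 and 150 with centred arrays. The low-fat clodronate difference of Cyp26a1 was 1.21 with a limit of 5 and 3.08 as deposited. Where no cause is named it was not tested.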
